A study of Mus musculus with 24 samples.

Results

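Aminoacyl-tRNA synthetases are the enzymes that attach each amino acid to its own tRNA, and 36 of their genes were followed here among the 55416 genes of a mouse kidney RNA-seq table. The genes were chosen by name from a fixed list of symbols and not by any measured value. They form a cytosolic set of 20 genes and a mitochondrial set of 16 genes, whose symbols end in 2. Each symbol matched 1 row of the table, and all 36 genes passed the filter on low values (a normalized count of 10 or more in 6 or more libraries), as did 17430 genes in total.

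The study sequenced RNA from 24 kidneys, 6 in each of 4 groups that cross a surgery with a Polg genotype. The surgery was either the ischemia reperfusion injury (IRI) that the labels call B-IRI or a sham operation. The groups are B-IRI PolgD257A, B-IRI Polg+/+, sham PolgD257A and sham Polg+/+, and the animals were littermates of both genotypes. Polg encodes the catalytic subunit of the polymerase that copies mitochondrial DNA, and the D257A change removes its proofreading, with the result that mutations build up in mitochondrial DNA. The change is carried in the animals' own Polg gene and not in a named kidney cell type. The time after surgery, the sex, the age, and whether PolgD257A animals carry 1 or 2 changed alleles are unknown here. The design text asks how mitochondrial DNA mutations contribute to injury after ischemia reperfusion.

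Cytosolic synthetases charge tRNAs for the ribosomes that translate nuclear genes, while the mitochondrial enzymes are made from nuclear genes, imported, and charge the tRNAs encoded by mitochondrial DNA for the few respiratory chain proteins made inside the organelle. Synthetases fall into class I and class II by the fold of the catalytic domain. Part of the cytosolic enzymes sit in a multi-synthetase complex held together by the scaffold proteins encoded by Aimp1, Aimp2 and Eef1e1. Many cytosolic synthetase genes are known targets of ATF4, the transcription factor of the integrated stress response, which is translated when the kinases GCN2, PERK, PKR or HRI phosphorylate eIF2α. ATF4 acts with C/EBP partners on composite DNA elements of which TGATGNAA is a common core.

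Reads assigned to genes numbered 18669806 to 26341004 per library in B-IRI PolgD257A, 19853485 to 25355776 in B-IRI Polg+/+, 20843184 to 25858504 in sham PolgD257A and 16689284 to 19737994 in sham Polg+/+, the shallowest group. Proximal tubule markers were high in every library, with a summed level over 10 genes of at least 307936 normalized counts. Polg mRNA averaged 1137 ± 51.5 normalized counts in B-IRI PolgD257A, 1078 ± 42.2 in B-IRI Polg+/+, 1046 ± 52.8 in sham PolgD257A and 1060 ± 24.3 in sham Polg+/+ (SD, n = 6), and as D257A changes a codon, this level is no check of the genotypes. Its log2 change was 0.12 ± 0.04 after B-IRI in PolgD257A (adjusted p = 0.012) and did not pass in the other contrasts (0.02, adjusted p = 0.68, after B-IRI in Polg+/+, -0.02, adjusted p = 0.95, and 0.08, adjusted p = 0.16, for PolgD257A against Polg+/+ in sham and after B-IRI, and 0.10, adjusted p = 0.27, for the interaction). Havcr1, which encodes the tubule injury marker KIM-1, separated the surgeries in every library, with medians of 33755 normalized counts in B-IRI PolgD257A, 14823 in B-IRI Polg+/+, 171 in sham PolgD257A and 137 in sham Polg+/+, and log2 changes of 7.54 ± 0.24 in PolgD257A (adjusted p = 1.1e-17) and 6.46 ± 0.24 in Polg+/+ (adjusted p = 5.1e-16).

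The start regions of 8 members are shown because an ATF4-type core lay near the start of several cytosolic members. They are RefSeq sequences on GRCm38.p6 read on the strand of each gene, and positions are counted from the first transcribed base as 1, with the base before it as -1. Capitals mark TGATGNAA or its reading on the other strand, TTNCATCA. The windows with matches were as follows, where Aars is shown from position -120 to 20 (chr8:111033722-111033861, plus strand), Gars from -60 to -1 (chr6:55037941-55038000, plus strand), Iars from -40 to 20 (chr13:49682090-49682149, plus strand), Tars from -60 to -1 (chr15:11399659-11399718, minus strand) and Yars from -40 to 20 (chr4:129189863-129189922, plus strand).
Aars: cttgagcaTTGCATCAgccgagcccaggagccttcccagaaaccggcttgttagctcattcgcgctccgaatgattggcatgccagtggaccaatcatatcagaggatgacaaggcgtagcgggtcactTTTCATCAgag
Gars: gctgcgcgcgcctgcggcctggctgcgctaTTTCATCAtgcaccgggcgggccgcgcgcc
Iars: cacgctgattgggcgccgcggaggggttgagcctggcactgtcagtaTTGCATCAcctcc
Tars: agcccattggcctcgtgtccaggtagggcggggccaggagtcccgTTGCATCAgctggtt
Yars: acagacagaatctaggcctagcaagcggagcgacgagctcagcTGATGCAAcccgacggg
Windows of the same kind without a match are shown from position -60 to -1 for Sars (chr3:108445260-108445319, minus strand), which had the largest change of the set in Polg+/+, for Qars (chr9:108507945-108508004, plus strand), the cytosolic gene that did not pass after surgery, and for mitochondrial Tars2 (chr3:95754978-95755037, minus strand).
Sars: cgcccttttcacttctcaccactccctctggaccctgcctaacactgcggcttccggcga
Qars: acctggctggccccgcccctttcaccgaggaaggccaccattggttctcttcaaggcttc
Tars2: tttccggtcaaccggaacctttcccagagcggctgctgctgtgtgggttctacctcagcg

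Promoter windows of 250 bases before to 50 bases after the start were at hand for 27 of the 36 members. The core, searched on both strands, was present in 5 of 13 cytosolic windows (38.5%) and in 0 of 14 mitochondrial windows, against 1219 of 27025 genes of the whole RefSeq table (4.51%). The 5 genes were Aars, Gars, Iars, Tars and Yars, and Aars held it at 2 positions, -112 to -105 and 10 to 17. All 5 are among the 13 cytosolic members listed here as known ATF4 targets, of which 8 had a window, while none of the 5 windows of the other cytosolic members held it. For comparison, 4 of 14 windows of ATF4 axis genes held the core (28.6%), namely those of Asns, Chac1, Slc7a11 and Trib3. A match is a description of these letters and not a shown binding site, and a missing match says nothing about ATF4 outside these windows.

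In sham Polg+/+ kidneys the cytosolic genes were, per length, mostly expressed above the mitochondrial ones. The median level was 307 normalized counts per kilobase of merged exons over the 20 cytosolic genes and 114 over the 16 mitochondrial genes. The highest was Nars, for asparagine, at 747 ± 21.2, followed by Sars, for serine, at 631 ± 30.6, and by Dars, for aspartate, and Farsb, the beta subunit of the phenylalanine enzyme, which did not differ beyond their spread (501 ± 16.4 and 501 ± 69.1, all in normalized counts per kilobase, SD, n = 6). Rars2, the mitochondrial arginine enzyme, was the highest of its set at 474 ± 45.1 per kilobase and came 5th overall. Mars2, the mitochondrial methionine enzyme, was the lowest of all at 33.8 ± 1.59 per kilobase, and the lowest cytosolic gene was Cars, for cysteine, at 80.8 ± 6.17 per kilobase. The length is that of all annotated exons merged, which can exceed the RNA expressed, and the ranks depend on it. Mars2 has 11294 such bases and Pars2 3094. Before division by length Mars2 stood above Pars2, at 381 ± 17.9 against 151 ± 17.0 normalized counts.

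Surgery was followed by higher levels of nearly the whole cytosolic set. In PolgD257A kidneys 19 of 20 cytosolic genes rose after B-IRI and none fell, where 30.2% of the 17430 genes tested rose and 60.4% changed in either direction (limma on log2 normalized counts, Benjamini-Hochberg adjusted p under 0.05). The median log2 change was 0.66 over the set (range 0.07 to 1.01), while the median over all genes was -0.00. In Polg+/+ kidneys, where 21.4% of all genes rose and 41.2% changed, again 19 of 20 cytosolic genes rose and none fell, with a median log2 change of 0.52 (range 0.04 to 0.85) and -0.01 over all genes. In each genotype the 6 B-IRI libraries lay above all 6 sham libraries for 19 of 20 genes, against 18.8% of all genes in PolgD257A (36.2% in either direction) and 11.5% in Polg+/+ (20.2% in either direction). The 36 members together took 0.312% ± 0.0315 of all reads in B-IRI PolgD257A, 0.272% ± 0.0130 in B-IRI Polg+/+, 0.200% ± 0.00400 in sham PolgD257A and 0.201% ± 0.00183 in sham Polg+/+ (SD, n = 6).

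**Figure D1:**
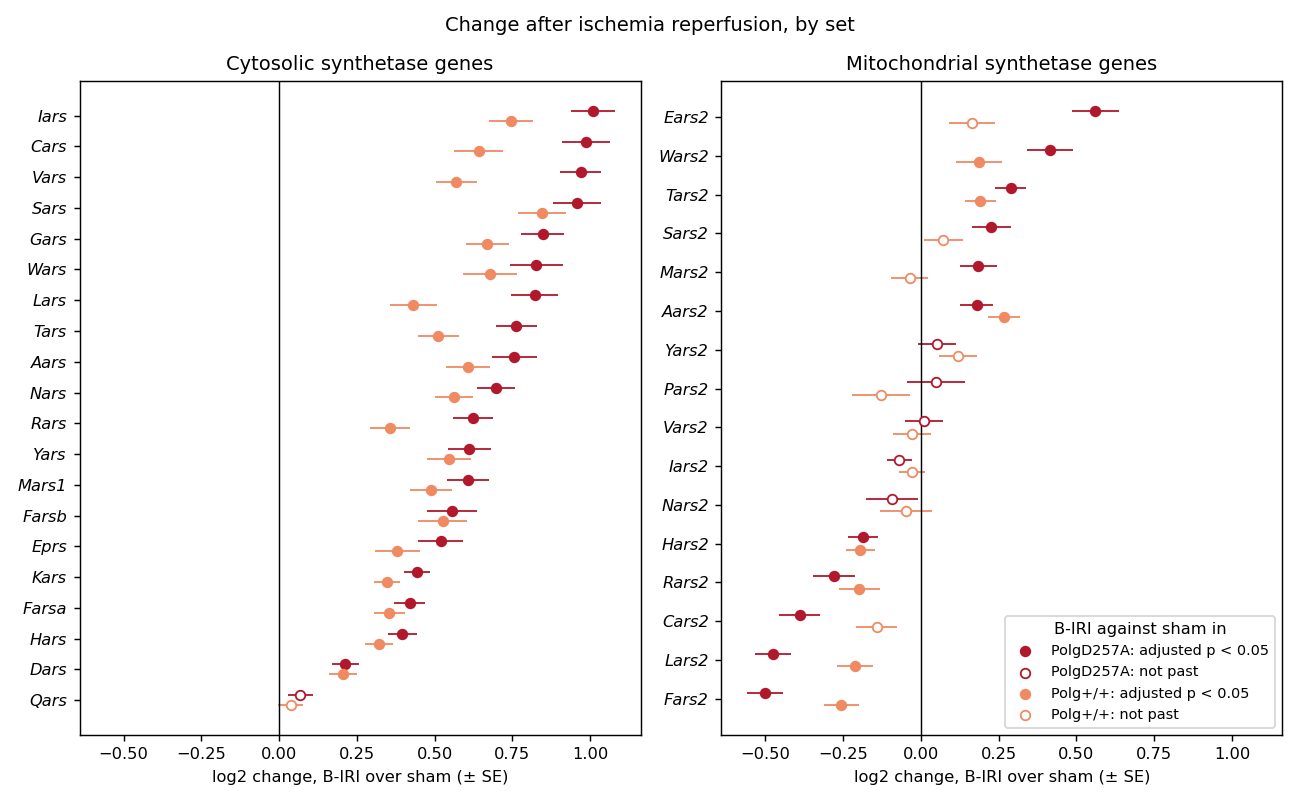
Log2 change of each synthetase gene after B-IRI against sham (x axis, log2 normalized count + 1, bars are ± SE of the limma fit) in PolgD257A (dark red) and Polg+/+ (orange), with filled points for adjusted p under 0.05. Of the 20 cytosolic genes 19 lie right of 0 and filled in both genotypes with medians of 0.66 and 0.52, while the 16 mitochondrial genes spread on both sides of 0.

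Iars, the isoleucine enzyme of the multi-synthetase complex (chr13:49682100-49734267), had the largest change in PolgD257A. Its lowest, median and highest normalized counts were 1968, 2345 and 2791 in B-IRI PolgD257A, 1601, 1990 and 2049 in B-IRI Polg+/+, 1092, 1172 and 1277 in sham PolgD257A and 1099, 1147 and 1214 in sham Polg+/+. All B-IRI libraries were above all sham libraries, and 1 B-IRI Polg+/+ library stood well below the other 5. The change was 2.01-fold in PolgD257A (log2 1.01 ± 0.07, adjusted p = 3.4e-12) and 1.68-fold in Polg+/+ (0.75 ± 0.07, adjusted p = 5.9e-09).

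Vars, which charges valine (chr17:35000987-35016322), had 1468, 1827 and 1874 normalized counts (lowest, median and highest) in B-IRI PolgD257A, 1198, 1358 and 1476 in B-IRI Polg+/+, 803, 898 and 1019 in sham PolgD257A and 838, 899 and 994 in sham Polg+/+. The surgeries did not overlap, and between the B-IRI groups the lowest PolgD257A library lay just under the highest Polg+/+ library. Vars rose 1.96-fold in PolgD257A (log2 0.97 ± 0.07, adjusted p = 1.9e-12), the smallest adjusted p of the family, and 1.48-fold in Polg+/+ (0.57 ± 0.07, adjusted p = 1.4e-07).

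Sars, the serine enzyme (chr3:108424865-108445209), changed most in Polg+/+. Its lowest, median and highest normalized counts were 5504, 6352 and 8481 in B-IRI PolgD257A, 5289, 5925 and 6120 in B-IRI Polg+/+, 3106, 3552 and 3596 in sham PolgD257A and 3061, 3225 and 3516 in sham Polg+/+. The B-IRI libraries of both genotypes lay above every sham library, and those of PolgD257A spread over a wide range. Sars rose 1.94-fold in PolgD257A (log2 0.96 ± 0.08, adjusted p = 4.6e-11) and 1.80-fold in Polg+/+ (0.85 ± 0.08, adjusted p = 3.1e-09).

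Cars, the cysteine enzyme (chr7:143557230-143600090), had 904, 1021 and 1250 normalized counts (lowest, median and highest) in B-IRI PolgD257A, 750, 834 and 905 in B-IRI Polg+/+, 476, 530 and 607 in sham PolgD257A and 479, 542 and 577 in sham Polg+/+. The B-IRI groups touched at their edges and the sham groups covered the same range. The rise was 1.98-fold in PolgD257A (log2 0.99 ± 0.08, adjusted p = 3.4e-11) and 1.56-fold in Polg+/+ (0.64 ± 0.08, adjusted p = 3.4e-07).

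Gars and Nars completed the 4 smallest adjusted p of the set in Polg+/+. Gars encodes the glycine enzyme, whose cytosolic and mitochondrial forms come from the same gene, as do those of the lysine enzyme Kars. Gars had 2220, 2763 and 3429 normalized counts (lowest, median and highest) in B-IRI PolgD257A, 2061, 2346 and 2445 in B-IRI Polg+/+, 1464, 1577 and 1630 in sham PolgD257A and 1397, 1457 and 1506 in sham Polg+/+. No B-IRI library of Gars reached down to a sham library, and its log2 change was 0.85 ± 0.07 in PolgD257A (adjusted p = 5.8e-11) and 0.67 ± 0.07 in Polg+/+ (adjusted p = 2.5e-08). Nars had 4644, 5415 and 6611 normalized counts in B-IRI PolgD257A, 4439, 4835 and 5006 in B-IRI Polg+/+, 3164, 3448 and 3560 in sham PolgD257A and 3132, 3248 and 3362 in sham Polg+/+. The surgeries were again apart, and Nars rose by 0.70 ± 0.06 on the log2 scale in PolgD257A (adjusted p = 2.3e-10) and by 0.56 ± 0.06 in Polg+/+ (adjusted p = 6.1e-08).

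The other cytosolic members that rose in both genotypes were Wars, Lars, Tars, Aars, Rars, Yars, Mars1, Farsb, Eprs, Kars, Farsa, Hars and Dars. Their log2 changes ran from 0.83 for Wars, the tryptophan enzyme, to 0.21 for Dars in PolgD257A, and from 0.68 for Wars to 0.21 for Dars in Polg+/+. Wars is also known as an interferon gamma response gene. Of 7 other interferon gamma response genes tested, 2 rose and 2 fell in PolgD257A (median log2 change -0.03) and 1 rose and 2 fell in Polg+/+ (median 0.04), with Cxcl10 at 1.27 ± 0.20 (adjusted p = 4.9e-06) and Cxcl9 at -2.44 ± 0.36 (adjusted p = 1.9e-06) in PolgD257A. Mars1, the methionine enzyme, overlaps 68 exonic bases of Ddit3, an ATF4 axis gene that also rose, on the other strand. Whether the counting used strand was not given, so for Mars1 and the other 12 members with exons that overlap a gene on the opposite strand (Aars, Cars, Farsb, Hars, Yars, Cars2, Ears2, Fars2, Hars2, Iars2, Nars2 and Vars2) part of the reads could belong to the other gene. Aars also shares 1326 exonic bases with Exosc6 on its own strand.

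Qars, the glutamine enzyme of the complex, was the cytosolic gene that did not pass in either genotype. It had 2280, 2319 and 2491 normalized counts (lowest, median and highest) in B-IRI PolgD257A, 2122, 2257 and 2320 in B-IRI Polg+/+, 2137, 2229 and 2375 in sham PolgD257A and 2043, 2173 and 2339 in sham Polg+/+. The 4 groups overlapped throughout. The log2 change was 0.07 ± 0.04 in PolgD257A (adjusted p = 0.15) and 0.04 ± 0.04 in Polg+/+ (adjusted p = 0.49), and the PolgD257A value passed at 0.13 with quantile normalization (adjusted p = 0.010) and at 0.09 with TMM scaling (adjusted p = 0.046). Mitochondria have no glutamine enzyme of their own. There Ears2 loads glutamate on the glutamine tRNA, and an amidotransferase of Gatb, Gatc and Qrsl1 converts it.

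**Figure D2:**
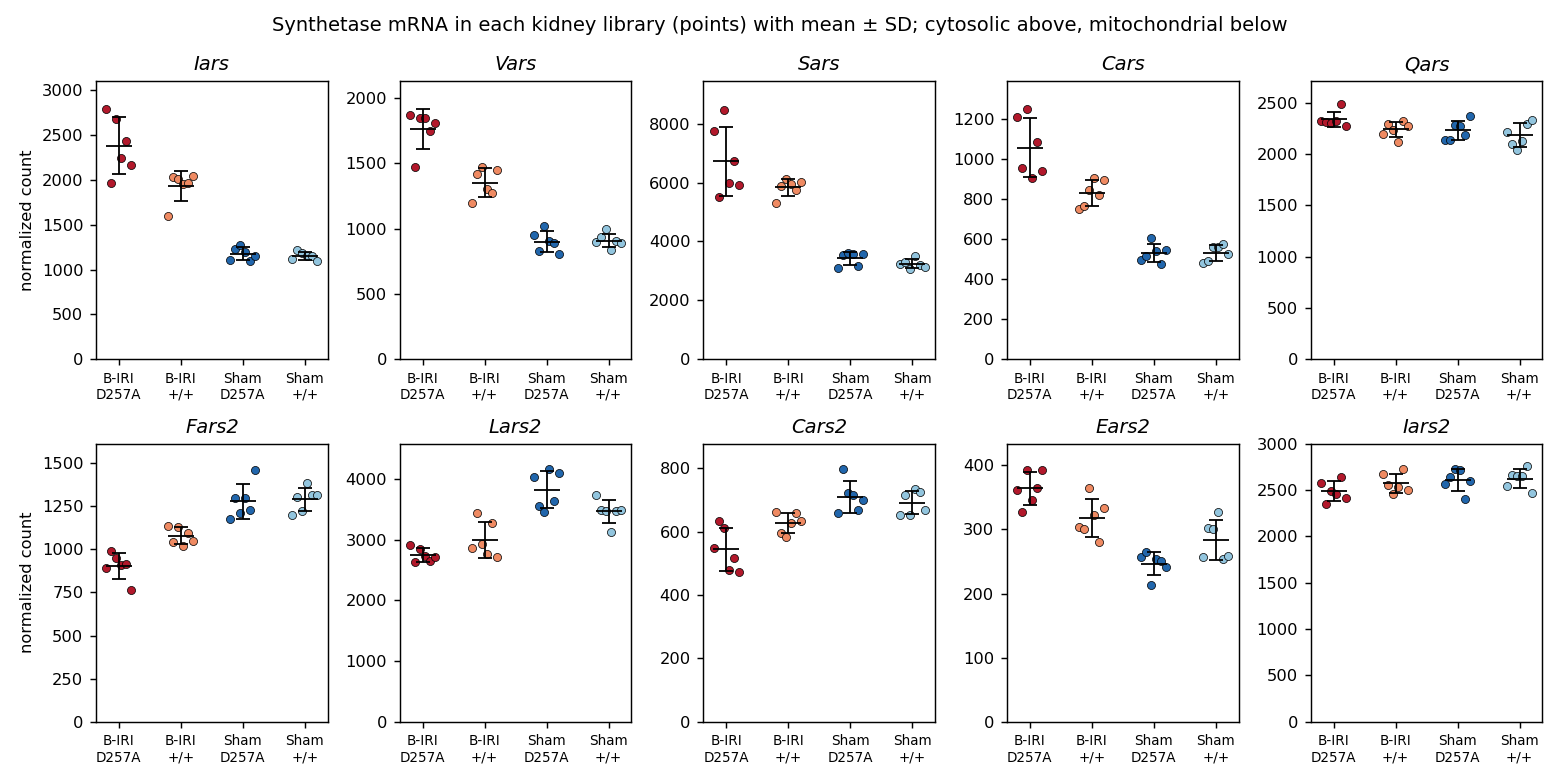
Normalized counts of 5 cytosolic genes (top row) and 5 mitochondrial genes (bottom row) in each of the 24 libraries (points), with the mean ± SD of the 6 libraries of each group, from B-IRI PolgD257A at the left to sham Polg+/+ at the right. Iars, Vars, Sars and Cars are above sham in all B-IRI libraries, Qars is level, and Fars2, at 903, 1080, 1279 and 1290 on average, is lowest in B-IRI PolgD257A.

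Within the cytosolic set the changes were larger among the listed ATF4 targets. All 13 of these rose in each genotype, with a median log2 change of 0.82 (range 0.52 to 1.01) in PolgD257A and 0.57 (0.38 to 0.85) in Polg+/+. Of the other 7 members 6 rose in each genotype, with a median of 0.42 (0.07 to 0.62) in PolgD257A and 0.35 (0.04 to 0.53) in Polg+/+. Since ATF4 targets among synthetases were listed with results of these data known, no test of this difference was made.

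The 8 cytosolic enzymes of the multi-synthetase complex had a median log2 change of 0.56 in PolgD257A and 0.37 in Polg+/+, and the 12 enzymes outside it 0.76 and 0.57. Class I and class II enzymes, 10 each, had medians of 0.72 and 0.63 in PolgD257A and 0.52 each in Polg+/+. Eprs, which charges both glutamate and proline, was counted in class I only. Where 30.2% of all genes rose in PolgD257A and 21.4% in Polg+/+, all 3 scaffold genes rose in both. Aimp2 changed most of them, with 360, 371 and 493 normalized counts (lowest, median and highest) in B-IRI PolgD257A, 278, 313 and 335 in B-IRI Polg+/+, 196, 210 and 251 in sham PolgD257A and 167, 209 and 232 in sham Polg+/+. The surgeries did not overlap, and Aimp2 rose by 0.89 ± 0.09 in PolgD257A (adjusted p = 5.2e-09) and by 0.60 ± 0.09 in Polg+/+ (adjusted p = 1.1e-05) on the log2 scale.

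Downstream of charging, 4 of 5 genes of the elongation factors that carry charged tRNA to cytosolic ribosomes or move them along rose in each genotype (Eef1a1, Eef1b2, Eef1d and Eef1g). Eef1g, a subunit of the exchange factor, rose by 0.69 ± 0.05 in PolgD257A (adjusted p = 2.3e-12) and by 0.55 ± 0.05 in Polg+/+ (adjusted p = 1.0e-09), while Eef2, the translocation factor, changed by -0.04 ± 0.05 (adjusted p = 0.58) and -0.01 ± 0.05 (adjusted p = 0.87). Of 6 genes of tRNA export, end repair and proofreading 1 rose in PolgD257A (Xpot, which exports tRNA from the nucleus, 0.24 ± 0.07, adjusted p = 0.0041) and 1 fell in Polg+/+ (Ankrd16, -0.21, adjusted p = 0.019). Among all genes 30.2% rose and 30.3% fell in PolgD257A, and 21.4% rose and 19.8% fell in Polg+/+.

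The mitochondrial set was divided. In PolgD257A kidneys 6 of 16 genes rose after B-IRI (Aars2, Ears2, Mars2, Sars2, Tars2 and Wars2), 5 fell (Cars2, Fars2, Hars2, Lars2 and Rars2) and 5 did not pass (Iars2, Nars2, Pars2, Vars2 and Yars2), where 30.2% of all genes rose and 30.3% fell. The median log2 change was 0.03 (range -0.50 to 0.56). With quantile normalization 4 rose, since Mars2 (0.10, adjusted p = 0.13) and Sars2 (0.14, adjusted p = 0.052) no longer passed. In Polg+/+ kidneys 3 rose (Aars2, Tars2 and Wars2), 4 fell (Fars2, Hars2, Lars2 and Rars2) and 9 did not pass, where 21.4% of all genes rose and 19.8% fell, with a median of -0.03 (range -0.26 to 0.27). The groups were free of overlap for 4 rises and 5 falls in PolgD257A, where 18.8% of all genes lay higher and 17.5% lower without overlap, and for 1 rise and 1 fall in Polg+/+, where 11.5% lay higher and 8.7% lower. With 60.4% of all genes changed in PolgD257A and 41.2% in Polg+/+, the 11 and 7 changed mitochondrial genes of 16 are near the background and no result about the set as a whole.

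Fars2, the mitochondrial phenylalanine enzyme (chr13:36117412-36726280), fell most. Its lowest, median and highest normalized counts were 764, 911 and 992 in B-IRI PolgD257A, 1021, 1072 and 1138 in B-IRI Polg+/+, 1178, 1263 and 1458 in sham PolgD257A and 1197, 1310 and 1383 in sham Polg+/+. The B-IRI PolgD257A libraries lay below all others, and the B-IRI Polg+/+ libraries below both sham groups. Fars2 fell by 0.50 on the log2 scale in PolgD257A (-0.50 ± 0.06, adjusted p = 2.7e-08) and by 0.26 in Polg+/+ (-0.26 ± 0.06, adjusted p = 0.00079).

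Lars2, the mitochondrial leucine enzyme (chr9:123366927-123462666), had 2631, 2723 and 2915 normalized counts (lowest, median and highest) in B-IRI PolgD257A, 2720, 2895 and 3447 in B-IRI Polg+/+, 3461, 3838 and 4166 in sham PolgD257A and 3131, 3483 and 3733 in sham Polg+/+. B-IRI and sham were apart in PolgD257A and overlapped in Polg+/+, where 1 sham library (replicate 4) lay below the highest B-IRI library. The log2 change was -0.48 ± 0.06 in PolgD257A (adjusted p = 1.1e-07) and -0.21 ± 0.06 in Polg+/+ (adjusted p = 0.0054).

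Cars2, for cysteine (chr8:11513977-11550783), had 473, 533 and 633 normalized counts in B-IRI PolgD257A, 583, 630 and 661 in B-IRI Polg+/+, 657, 707 and 796 in sham PolgD257A and 652, 691 and 733 in sham Polg+/+. It fell in PolgD257A, where the groups did not overlap (log2 -0.39 ± 0.07, adjusted p = 1.3e-05), and in Polg+/+ the groups overlapped and the change was -0.14 ± 0.07 (adjusted p = 0.088). Its exons overlap 422 bases of Naxd on the other strand. Hars2, for histidine, had 762, 802 and 838 normalized counts in B-IRI PolgD257A, 759, 794 and 937 in B-IRI Polg+/+, 858, 903 and 976 in sham PolgD257A and 894, 916 and 988 in sham Polg+/+. The surgeries were apart in PolgD257A and met in Polg+/+ through 1 high B-IRI library, and Hars2 changed by -0.19 ± 0.05 in PolgD257A (adjusted p = 0.0016) and -0.19 ± 0.05 in Polg+/+ (adjusted p = 0.0020).

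Ears2, the mitochondrial glutamate enzyme (chr7:122037213-122067263), rose most of its set. It had 327, 363 and 393 normalized counts (lowest, median and highest) in B-IRI PolgD257A, 281, 313 and 364 in B-IRI Polg+/+, 213, 252 and 264 in sham PolgD257A and 254, 280 and 327 in sham Polg+/+. Every B-IRI PolgD257A library was above every sham PolgD257A library, while the Polg+/+ groups overlapped. The log2 change was 0.56 ± 0.07 in PolgD257A (adjusted p = 3.6e-07) and 0.16 ± 0.07 in Polg+/+ (adjusted p = 0.082).

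Aars2, for alanine, and Tars2, for threonine, rose in both genotypes. Aars2 had 628, 694 and 758 normalized counts (lowest, median and highest) in B-IRI PolgD257A, 690, 719 and 746 in B-IRI Polg+/+, 576, 615 and 642 in sham PolgD257A and 519, 600 and 649 in sham Polg+/+. Its change was 0.18 ± 0.05 in PolgD257A, where the groups overlapped (adjusted p = 0.0042), and 0.27 ± 0.05 in Polg+/+, where they did not (adjusted p = 0.00017). Tars2 had 856, 916 and 1030 normalized counts in B-IRI PolgD257A, 843, 897 and 976 in B-IRI Polg+/+, 695, 771 and 786 in sham PolgD257A and 743, 785 and 870 in sham Polg+/+. The surgeries overlapped in Polg+/+ only at their edges, and Tars2 changed by 0.29 ± 0.05 in PolgD257A (adjusted p = 1.7e-05) and 0.19 ± 0.05 in Polg+/+ (adjusted p = 0.0032).

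Wars2, the mitochondrial tryptophan enzyme, had 336, 356 and 383 normalized counts (lowest, median and highest) in B-IRI PolgD257A, 287, 324 and 389 in B-IRI Polg+/+, 230, 264 and 332 in sham PolgD257A and 266, 286 and 303 in sham Polg+/+. The surgeries were apart in PolgD257A and overlapped in Polg+/+. Wars2 rose by 0.41 ± 0.07 in PolgD257A (adjusted p = 2.5e-05), and in Polg+/+ it passed by a small margin (0.19 ± 0.07, adjusted p = 0.044), where leaving out any of 9 libraries (replicates 3, 4, 5 and 6 of B-IRI Polg+/+ and 1, 2, 3, 5 and 6 of sham Polg+/+) ended that call, with adjusted p of 0.051 to 0.14. Without sham Polg+/+ replicate 4, 5 mitochondrial genes rose in Polg+/+, and without B-IRI Polg+/+ replicate 4 or 6 Rars2 no longer fell (adjusted p = 0.057 and 0.061).

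For 13 amino acids both a cytosolic and a mitochondrial gene were among the members, and the log2 ratio of the cytosolic over the mitochondrial partner was taken in each library. The ratio was higher after B-IRI for 13 of 13 pairs in each genotype, with a median difference of 0.73 (range 0.41 to 1.38) in PolgD257A and 0.55 (0.32 to 0.78) in Polg+/+. For 12 of 13 pairs in each genotype the B-IRI and sham libraries did not overlap. No such share was taken over other gene pairs, so this count has no background beside it. The ratios rest on the same values as the changes above, where 19 of 20 cytosolic genes rose, and are no separate result. The largest difference belonged to cysteine, where the mean log2 ratio of Cars over Cars2 was 0.96 in B-IRI PolgD257A, 0.40 in B-IRI Polg+/+, -0.42 in sham PolgD257A and -0.38 in sham Polg+/+. The summed normalized counts of the cytosolic set over those of the mitochondrial set were 3.31 to 4.23 in B-IRI PolgD257A, 2.81 to 3.33 in B-IRI Polg+/+, 2.02 to 2.25 in sham PolgD257A and 2.02 to 2.10 in sham Polg+/+.

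**Figure D3:**
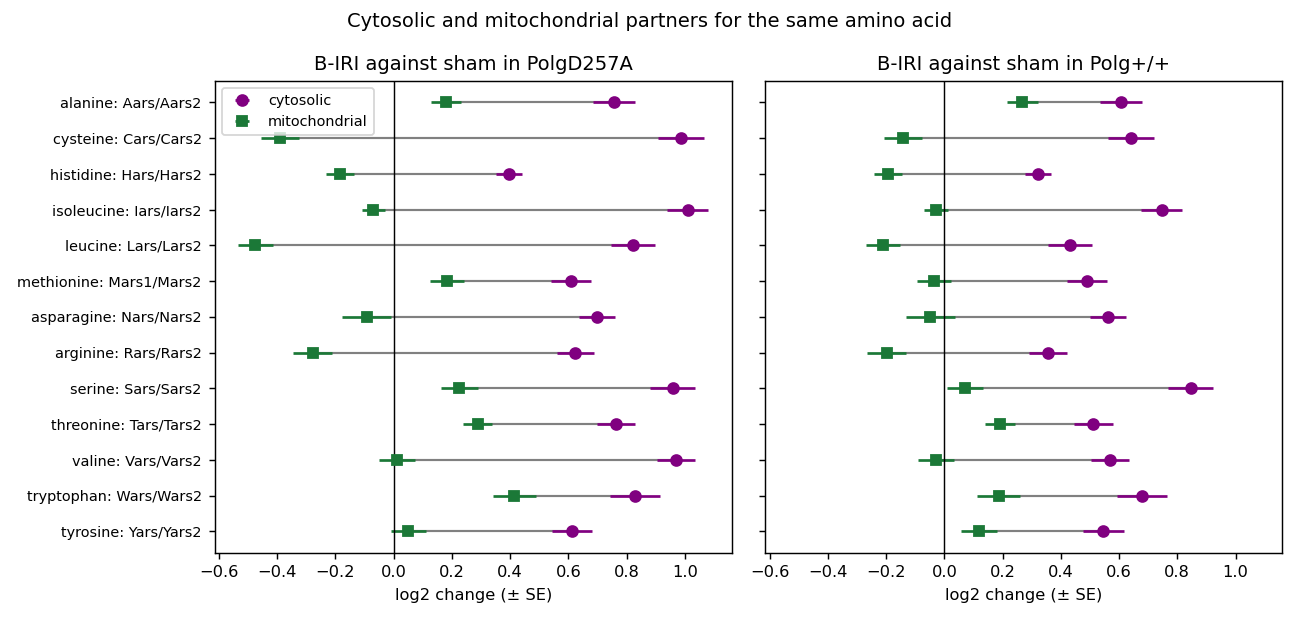
Log2 change after B-IRI against sham (x axis, ± SE) of the cytosolic gene (purple circles) and the mitochondrial gene (green squares) for each of 13 amino acids, in PolgD257A (left) and Polg+/+ (right). In every pair and both genotypes the cytosolic partner lies to the right, with a median difference of 0.73 in PolgD257A and 0.55 in Polg+/+.

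Hars and Hars2 lie head to head on chromosome 18, with 195 shared exonic bases on opposite strands, and moved apart. Hars had 1346, 1406 and 1501 normalized counts (lowest, median and highest) in B-IRI PolgD257A, 1198, 1295 and 1388 in B-IRI Polg+/+, 989, 1073 and 1179 in sham PolgD257A and 990, 1032 and 1071 in sham Polg+/+. All B-IRI libraries of Hars were above all sham libraries of either genotype. Hars rose by 0.40 ± 0.05 in PolgD257A (adjusted p = 3.0e-08) and by 0.32 ± 0.05 in Polg+/+ (adjusted p = 3.3e-06), in the comparisons in which Hars2 fell.

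Around the mitochondrial synthetases, Gatb, a subunit of the amidotransferase that completes glutamine tRNA, fell more than any synthetase. It had 940, 1036 and 1114 normalized counts (lowest, median and highest) in B-IRI PolgD257A, 1211, 1294 and 1478 in B-IRI Polg+/+, 1567, 1765 and 1839 in sham PolgD257A and 1538, 1804 and 1814 in sham Polg+/+. The B-IRI groups were apart from each other and from sham, and Gatb changed by -0.76 ± 0.06 in PolgD257A (adjusted p = 1.1e-11) and -0.39 ± 0.06 in Polg+/+ (adjusted p = 3.7e-06). The other subunits did not follow, with Qrsl1 at 0.10 ± 0.08 in PolgD257A (adjusted p = 0.29) and 0.34 ± 0.08 in Polg+/+ (adjusted p = 0.0014), and Gatc at 0.09 ± 0.05 (adjusted p = 0.086) and 0.15 ± 0.05 (adjusted p = 0.011). Of 10 mitochondrial translation factors none rose and 5 fell in PolgD257A (Tufm, Gfm1, Gfm2, Mtif3 and Mtrf1, median over the 10 of -0.21), and none rose and 2 fell in Polg+/+ (Gfm2 and Mtrf1, median -0.07). Among all genes 30.3% fell in PolgD257A and 19.8% in Polg+/+, so the 2 of 10 in Polg+/+ are near the background.

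The size of the cytosolic response differed between kidneys. The median log2 difference of the 20 cytosolic genes from the sham Polg+/+ mean was 0.51 to 0.97 in B-IRI PolgD257A libraries, 0.39 to 0.57 in B-IRI Polg+/+, -0.04 to 0.13 in sham PolgD257A and -0.04 to 0.04 in sham Polg+/+. The same median over the 16 mitochondrial genes stayed between -0.08 and -0.00, -0.09 and 0.03, -0.12 and 0.00, and -0.04 and 0.08 in those groups. The B-IRI PolgD257A kidneys with the highest cytosolic medians, replicates 3 (0.97) and 1 (0.90), were also those with most Asns, the ATF4 target that makes asparagine (1503 and 1369 normalized counts), and replicate 2, with the lowest (0.51), had least (682). In B-IRI Polg+/+, replicate 1 was lowest in the cytosolic median (0.39), in Asns (352) and in Havcr1 (5441). Havcr1 did not follow the cytosolic median in B-IRI PolgD257A, where replicate 2 had 35712 normalized counts of it, more than replicate 3 (33059). In B-IRI Polg+/+ it did so more closely, as replicate 6 was highest in both the cytosolic median (0.57) and Havcr1 (24888). Asns was highest there in replicate 4 (696), whose cytosolic median was 0.51. These values come from the same libraries and are given as a description.

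**Figure D4:**
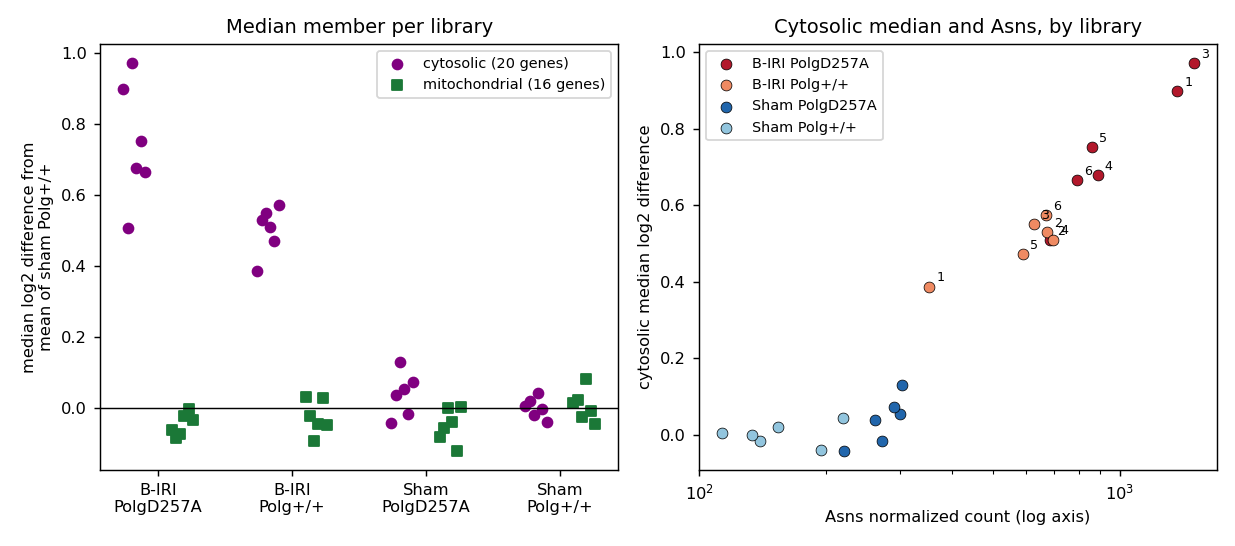
Left, median log2 difference from the sham Polg+/+ mean over the 20 cytosolic (purple) and 16 mitochondrial genes (green) in each library, by group. Right, the cytosolic median (y axis) against the Asns normalized count (x axis, log scale) of each library, with replicate numbers beside B-IRI libraries, where B-IRI PolgD257A replicates 3 and 1 are highest on both axes.

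The ATF4 axis moved in the same kidneys. Of 14 genes of eIF2 kinases and the ATF4 axis 12 rose and 1 fell in PolgD257A (median log2 change 1.03), and 11 rose and 1 fell in Polg+/+ (median 0.78), the gene that fell being Eif2ak1, the heme-regulated eIF2 kinase, in both. By comparison, 30.2% of all genes rose in PolgD257A and 21.4% in Polg+/+. Atf4 mRNA had 2824, 3353 and 4918 normalized counts (lowest, median and highest) in B-IRI PolgD257A, 2446, 2836 and 3256 in B-IRI Polg+/+, 1658, 2021 and 2284 in sham PolgD257A and 1722, 1821 and 2119 in sham Polg+/+. B-IRI libraries lay above sham libraries in both genotypes, by 0.85 ± 0.11 in PolgD257A (adjusted p = 3.6e-07) and 0.56 ± 0.11 in Polg+/+ (adjusted p = 0.00028). Asns rose by 1.83 ± 0.18 in PolgD257A and by 1.91 ± 0.18 in Polg+/+ on the log2 scale. A larger rise in PolgD257A, as for Atf4, thus did not hold for every gene of the axis. Amino acid transporters of the same program rose in 6 of 6 cases in PolgD257A and in 4 of 6 in Polg+/+, among them Slc7a5, a carrier of large neutral amino acids (1.38 ± 0.13, adjusted p = 1.4e-09, and 0.81 ± 0.13, adjusted p = 2.4e-05). ATF4 is controlled mainly through its translation, which RNA levels do not show.

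Cell markers moved with surgery too. The summed level of 10 proximal tubule markers was 307936 to 506662 normalized counts in B-IRI PolgD257A and 553325 to 689073 in B-IRI Polg+/+, against 913018 and 889104 as the lowest sham PolgD257A and sham Polg+/+ values, and 10 of 10 fell in PolgD257A and 9 of 10 in Polg+/+. Of 5 fibroblast markers 4 rose and 1 fell in each genotype, with median sums of 10555 normalized counts in B-IRI PolgD257A, 6988 in B-IRI Polg+/+, 3017 in sham PolgD257A and 3056 in sham Polg+/+. The sums of 10 leukocyte markers overlapped between all groups (1842 to 2802 in B-IRI PolgD257A, 1635 to 2693 in B-IRI Polg+/+, 2056 to 2611 in sham PolgD257A and 2134 to 2761 in sham Polg+/+), and of the 9 tested 3 rose and 1 fell in each genotype. Of 5 endothelial markers 3 rose (Pecam1, Cdh5 and Plvap) and 1 fell in PolgD257A and 1 fell in Polg+/+ (Kdr in both genotypes), of 6 distal nephron markers 4 fell in PolgD257A and 2 rose and 3 fell in Polg+/+, and of 4 podocyte markers 1 (Wt1) rose in PolgD257A. The shares over all genes were 30.2% higher and 30.3% lower in PolgD257A, and 21.4% and 19.8% in Polg+/+. In whole tissue, a change in the number of cells of a type and a change in RNA per cell cannot be told apart. The part of the marker shifts in the synthetase changes was not tested.

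In sham kidneys no synthetase gene passed in PolgD257A against Polg+/+ (0 of 36 by limma, by edgeR and by DESeq2), where 0.126% of all genes did (0.0861% higher and 0.0402% lower). At an unadjusted p under 0.05 there were 0 of 20 cytosolic and 3 of 16 mitochondrial genes by each of the 3 tools (Ears2, Mars2 and Lars2 by limma), where 7.34% of all genes lay under it by limma, 7.05% by edgeR and 6.67% by DESeq2. The median log2 difference was 0.03 over the cytosolic set and -0.04 over the mitochondrial set. The groups did not overlap for Mars2, against 0.631% of all genes (0.379% higher and 0.252% lower), with 299 to 359 normalized counts in sham PolgD257A and 361 to 406 in sham Polg+/+ (log2 -0.19 ± 0.06, adjusted p = 0.31). Asns, which is no synthetase, was higher in every sham PolgD257A library than in any sham Polg+/+ library (medians 281 and 147 normalized counts) and did not pass (0.81 ± 0.18, adjusted p = 0.081). Its groups all but touched, at 220.5 in sham PolgD257A replicate 1 and 220.3 in sham Polg+/+ replicate 4. The 14 genes of eIF2 kinases and the ATF4 axis, Asns among them, had a median log2 difference of 0.29 in sham kidneys. The median over all genes was 0.01. None of the 14 passed, and Asns and Atf5 were higher without overlap. The 13 cytosolic genes listed as ATF4 targets had a median of 0.03. The cause of this difference between the lists was not tested.

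After B-IRI, 12 of 20 cytosolic genes were higher in PolgD257A than in Polg+/+ and none was lower, where 14.3% of all genes were higher and 15.2% lower (29.5% in either direction). The median log2 difference was 0.20 over the set and 0.01 over all genes. The groups overlapped for all 20, whereas 4.65% of all genes were higher without overlap and 10.6% lay apart in either direction. Among the listed ATF4 targets 9 of 13 passed (median 0.24) and among the others 3 of 7 (median 0.12). As the targets were listed with results of these data known, this split was not tested. The comparison of genotypes after B-IRI and the surgery comparisons share the B-IRI libraries.

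Vars led with a difference of 0.38 ± 0.07 (1.31-fold, adjusted p = 7.8e-05), and 5 of the 6 B-IRI PolgD257A libraries exceeded every B-IRI Polg+/+ library. Rars, the arginine enzyme of the complex, had 1528, 1674 and 2005 normalized counts (lowest, median and highest) in B-IRI PolgD257A, 1236, 1374 and 1564 in B-IRI Polg+/+, 1038, 1095 and 1176 in sham PolgD257A and 1013, 1075 and 1144 in sham Polg+/+. The B-IRI groups overlapped at their edges, and Rars differed by 0.30 ± 0.06 (adjusted p = 0.00096). Lars, for leucine, had 1148, 1548 and 1854 in B-IRI PolgD257A, 1106, 1197 and 1329 in B-IRI Polg+/+, 838, 845 and 938 in sham PolgD257A and 868, 886 and 944 in sham Polg+/+. Its B-IRI PolgD257A libraries spread over the widest relative range of these and reached into that of Polg+/+, with a difference of 0.34 ± 0.08 (adjusted p = 0.0014). Cars differed by 0.34 ± 0.08 (adjusted p = 0.0015) and Iars by 0.29 ± 0.07 (adjusted p = 0.0023). All 3 scaffold genes were higher in PolgD257A, Aimp2 by 0.38 ± 0.09 without overlap (adjusted p = 0.0026). Among all genes 14.3% were higher and 4.65% were higher without overlap.

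Single libraries moved some of these calls. The count of 12 became 15 without B-IRI PolgD257A replicate 2 and 10 when replicate 3 of B-IRI PolgD257A or replicate 1 or 4 of B-IRI Polg+/+ was left out. Wars lost its call without any of replicates 1 and 3 of B-IRI PolgD257A and 1, 4 and 5 of B-IRI Polg+/+ (adjusted p of 0.052 to 0.11), Hars without any of replicate 4 of B-IRI PolgD257A and 1 and 4 of B-IRI Polg+/+ (0.061 to 0.064), and Mars1 without B-IRI PolgD257A replicate 3 or 5 (0.058 and 0.059). With only the B-IRI libraries in the fit the count was 9, as Mars1, Nars and Wars did not pass (adjusted p = 0.052, 0.054 and 0.11).

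**Figure D5:**
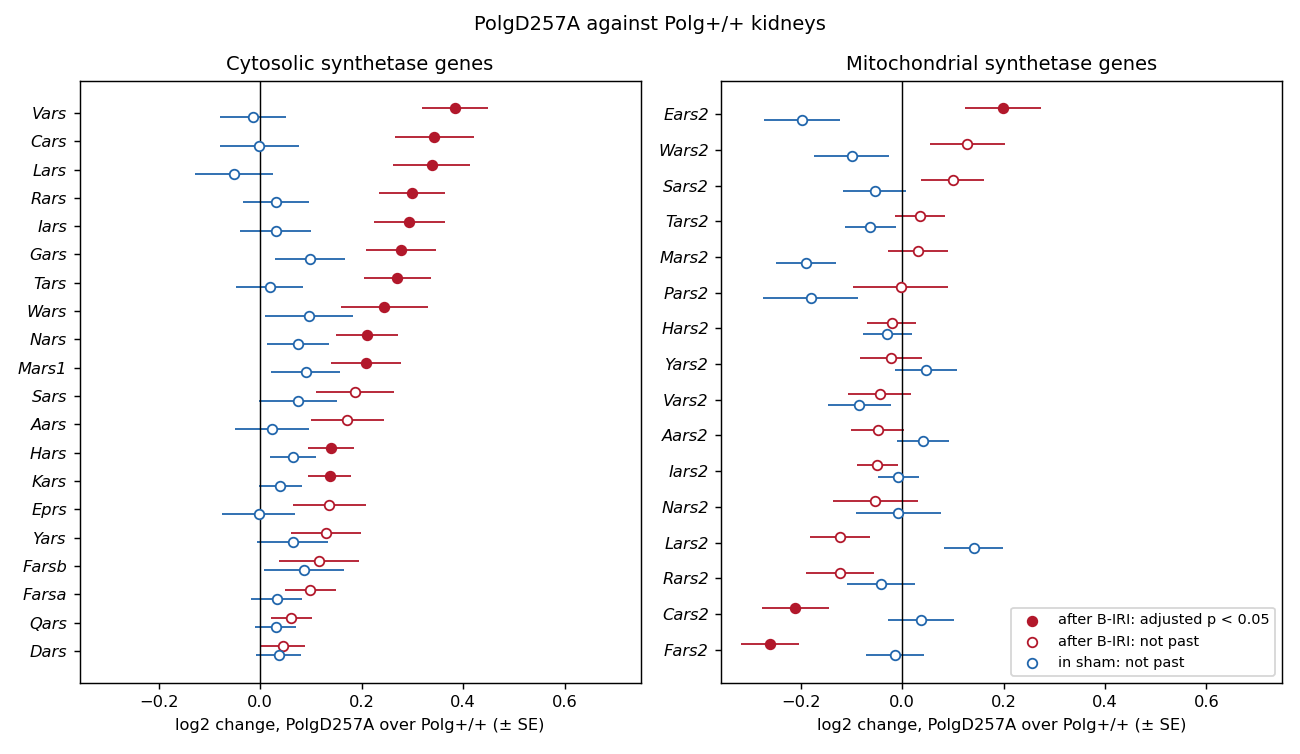
Log2 difference between PolgD257A and Polg+/+ for each synthetase gene (x axis, ± SE of the limma fit) after B-IRI (red) and in sham (blue), with filled points for adjusted p under 0.05. After B-IRI 12 cytosolic genes are filled and right of 0, led by Vars at 0.38, and of the mitochondrial genes Ears2 is filled to the right and Cars2 and Fars2 to the left, while no sham point is filled.

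Of the mitochondrial genes 1 was higher in PolgD257A after B-IRI (Ears2) and 2 were lower (Fars2 and Cars2), with a median of -0.03. These 3 of 16 are a smaller share than the 29.5% of all genes called in either direction (14.3% higher and 15.2% lower). Fars2 was the only 1 of the 36 members whose B-IRI groups did not overlap, against 5.94% of all genes lower without overlap, and differed by -0.26 ± 0.06 (adjusted p = 0.0011). Cars2 differed by -0.21 ± 0.07 (adjusted p = 0.017), a call that ended without B-IRI PolgD257A replicate 4 or 6 (adjusted p of 0.051 to 0.054). Ears2 differed by 0.20 ± 0.07 (adjusted p = 0.046), and its call ended on leaving out any of 11 libraries (replicates 1, 3, 4, 5 and 6 of B-IRI PolgD257A, 1, 2, 4 and 5 of B-IRI Polg+/+, and 4 and 5 of sham PolgD257A), with adjusted p of 0.051 to 0.12. The log2 ratio of cytosolic over mitochondrial partner was higher in B-IRI PolgD257A than in B-IRI Polg+/+ for 13 of 13 pairs (median 0.23), and for 3 of them (cysteine, isoleucine and arginine) without overlap. No share over other gene pairs was taken here either, and the ratios rest on the same values as the differences of single genes. Gatb differed by -0.36 ± 0.06 (adjusted p = 3.2e-05), and 4 of 10 mitochondrial translation factors were lower (Tufm, Gfm1, Gfm2 and Mtif3) and none higher.

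Cell type and injury markers differed between the B-IRI groups as well. Havcr1 was 2.53-fold higher in B-IRI PolgD257A, without overlap (log2 1.34 ± 0.24, adjusted p = 0.00017). Lower were 8 of 10 proximal tubule and 5 of 6 distal nephron markers, with a median log2 difference of -0.62 in each list. Higher were 4 of 5 fibroblast and 3 of 5 endothelial markers. Of the 9 leukocyte markers tested 4 were higher and 1 lower, and none of the 4 podocyte markers passed. Among all genes 14.3% were higher and 15.2% lower. Asns differed by 0.73 ± 0.18 (adjusted p = 0.0034) and Atf4 by 0.35 ± 0.11 (adjusted p = 0.022). The part of injury depth and of cell makeup in the synthetase differences was not tested.

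The interaction asks whether the change after surgery differed between the genotypes, and it uses all 24 libraries of the comparisons above. For the cytosolic set it was positive and past the threshold in 4 of 20 genes and negative in none, where 6.87% of all genes were called higher, 9.08% lower and 15.9% in either direction. These were Vars (0.40 ± 0.09, adjusted p = 0.0045), Lars (0.39 ± 0.11, adjusted p = 0.014), Cars (0.35 ± 0.11, adjusted p = 0.033) and Rars (0.27 ± 0.09, adjusted p = 0.047). The set's median was 0.14. For the other 16 cytosolic genes a different response in the 2 genotypes was not shown, among them Iars at 0.26 ± 0.10 (adjusted p = 0.071) and Sars at 0.11 ± 0.11 (adjusted p = 0.53). Iars and Gars passed without B-IRI PolgD257A replicate 2 (adjusted p = 0.018 and 0.036), and Tars without replicate 4 of B-IRI PolgD257A or replicate 2 or 6 of B-IRI Polg+/+ (0.039 to 0.047). Of the 14 genes of eIF2 kinases and the ATF4 axis 1 was called higher by the interaction (Eif2ak4, 0.34 ± 0.10, adjusted p = 0.025) and none lower. The median over the 14 was 0.09 (range -0.34 to 1.06), and Asns was at -0.08 ± 0.26 (adjusted p = 0.76). None of the 3 scaffold genes passed (median 0.20).

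Among mitochondrial genes the interaction passed for Ears2 (0.40 ± 0.11, adjusted p = 0.012), for which PolgD257A differed from Polg+/+ by -0.20 ± 0.07 in sham kidneys (adjusted p = 0.48) but by 0.20 ± 0.07 in B-IRI kidneys, and was negative for Lars2 (-0.26 ± 0.08, adjusted p = 0.032) and Fars2 (-0.25 ± 0.08, adjusted p = 0.038). These 3 of 16 are near the share over all genes, of which 15.9% were called in either direction (6.87% higher and 9.08% lower). Vars, Lars and Ears2 kept their interaction calls on leaving out each of the 24 libraries in turn. Rars lost its call in 16 of these 24 runs (adjusted p of 0.052 to 0.089), in all but those without replicates 2, 5 and 6 of B-IRI PolgD257A, 2, 3 and 6 of B-IRI Polg+/+, 6 of sham PolgD257A and 6 of sham Polg+/+. Cars lost it in 10 runs (0.052 to 0.068), those without replicates 1 and 3 of B-IRI PolgD257A, 1, 2 and 5 of B-IRI Polg+/+, 1 and 5 of sham PolgD257A, and 3, 4 and 5 of sham Polg+/+. Fars2 lost it in 11 runs (0.053 to 0.070), those without replicates 1, 4 and 6 of B-IRI PolgD257A, 1, 3 and 5 of B-IRI Polg+/+, 2, 4 and 6 of sham PolgD257A, and 1 and 3 of sham Polg+/+. Lars2 lost it in 6 runs (0.051 to 0.063), those without replicates 2 and 5 of B-IRI Polg+/+, 1, 4 and 6 of sham PolgD257A, and 4 of sham Polg+/+.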

How the data were processed

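RNA-seq libraries of 24 mouse kidneys were analysed as deposited. The signal deposited by the authors is a normalized count for each gene. Dividing raw counts by a size factor for each library gives these values, as the recovered reads below show. The submitters' processing notes name FastQC, STAR, SAMtools, featureCounts and DESeq2 and the build GRCm38.p6, without versions. Use of strand in counting is not stated there. Whole reads came out, within 0.001, for 100% of values multiplied by factors of 0.740 to 1.31. In the column names, Ctrl was read as Polg+/+, Mut as PolgD257A and SurgBIR as B-IRI, a reading inferred from the names on which all comparisons rest. The labels call the 6 libraries of a group biological replicates.

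The main test was limma-trend (limma 3.58.1, R 4.3.3) on log2(normalized count + 1) with a mean for each of the 4 groups of libraries. It covered the 17430 genes that reached a normalized count of 10 in 6 or more libraries. The pseudocount understates changes of low genes. The standard error uses 1 variance per gene pooled over the 4 groups. Adjusted p-values are Benjamini-Hochberg over all genes tested in a contrast, two-sided, with a threshold of 0.05. The fit was checked on simulated counts with known changes. On the recovered reads edgeR 4.0.16 called 5379 genes higher and 5261 lower for B-IRI against sham in PolgD257A, DESeq2 1.42.0 called 5261 and 5320, and limma called 5260 and 5274.

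The members, the companion gene lists and the rule for named genes were chosen with earlier results of these data known. The rule gives in full, for each set, the 4 members with the smallest adjusted p in each surgery contrast, the 3 with the smallest for genotype after B-IRI, those past the threshold for genotype in sham and (up to 6, though all 7 are given) for the interaction, up to 3 that moved against their set, the largest change of each set, up to 4 genes of a companion list, and Polg and Havcr1. Qars, Hars, Mars2 in sham and Asns in sham were described in addition, after their values were seen. ATF4 targets, complex members and classes follow textbook knowledge, but the ATF4 targets were listed with results of these data known. Ddit3 has 2 gene IDs in the table and the older was used. Of 55416 IDs, 52083 had a symbol in GENCODE M21 (35 with the same ID version), and member coordinates and exon overlaps are those of GENCODE M21 on GRCm38. Python 3.11.15, NumPy 2.4.6, pandas 2.3.3 and Matplotlib 3.10.9 did the rest. Alternatives were 2 other pseudocounts, no filter or a filter of 50, TMM, quantile normalization, robust empirical Bayes, library weights, a fit to the compared libraries alone, a replicate block, edgeR, DESeq2 and leaving out each library.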

Additional observations from a re-analysis of the deposited data

Results flagged for a closer look

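In 13 of 144 combinations of a member and a group, the highest or lowest of 6 libraries stood apart, with a gap to the nearest of the others over 0.625 of the group's range (Dixon's criterion), which chance alone gives in about 1 in 20 groups. B-IRI Polg+/+ replicate 1 was lowest for Gars (2061 normalized counts, next 2308), Iars (1601, next 1955) and Nars (4439, next 4803). B-IRI PolgD257A replicate 2 was lowest for Mars1 (1369, next 1761) and Vars (1468, next 1747). Further high values were Lars in sham PolgD257A replicate 3 (938.4), Mars1 in sham Polg+/+ replicate 2 (1209), Qars in B-IRI PolgD257A replicate 5 (2491), Hars2 in B-IRI Polg+/+ replicate 5 (936.5), Nars2 in sham PolgD257A replicate 6 (423.7), Pars2 in sham PolgD257A replicate 3 (159.7) and Yars2 in sham Polg+/+ replicate 4 (660.9), and Pars2 was low in B-IRI Polg+/+ replicate 2 (108.2).

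The change after B-IRI was called different between PolgD257A and Polg+/+ by the interaction test for 7 of the 36 members. This is near the background, as 15.9% of all genes were called in either direction. On leaving out 1 of the 24 libraries, the calls of Rars, Fars2, Cars and Lars2 ended in 16, 11, 10 and 6 runs. The log2 differences of the changes were 0.345 for Cars, 0.3899 for Lars, 0.268 for Rars, 0.3994 for Vars, 0.397 for Ears2, -0.2461 for Fars2 and -0.2635 for Lars2. No explanation was tested.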

How the results depend on the processing

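Across 36 alternatives no member called in any comparison turned its direction, and the counts for B-IRI against sham in PolgD257A (19 cytosolic genes higher, 6 mitochondrial higher and 5 lower) were the same on leaving out each library. With quantile normalization they were 20, 4 and 5. PolgD257A against Polg+/+ after B-IRI gave 1 mitochondrial gene higher (Ears2), but 0 without a filter, with quantile normalization, with only the libraries compared and with the replicate block. The interaction gave 4 cytosolic genes higher but 2 without a filter, 2 mitochondrial genes lower but 0 without a filter, 1 with quantile normalization and 0 with the replicate block, and 1 mitochondrial gene higher but 2 with library weights. The cause was not tested. Leaving out each library gave, for genotype after B-IRI, 10 to 15 cytosolic genes higher (9 with only the libraries compared and 15 with quantile normalization), 0 to 1 mitochondrial higher and 1 to 2 lower, with set medians of 0.14 to 0.25 and -0.05 to -0.01. For the interaction it gave 2 to 6 cytosolic genes higher, 1 to 2 mitochondrial higher and 0 to 3 lower, with medians of 0.09 to 0.19 and -0.03 to 0.02. In Polg+/+ it gave 2 to 5 mitochondrial genes higher and 3 to 4 lower after B-IRI. No pairing by replicate number was seen over the 2000 genes that varied most within groups. Correlations of same-numbered libraries after removing group means ran from -0.30 to 0.17, and 4 of 24 libraries correlated best with their own number. Such correlations cannot show whether same-numbered animals were related or handled together. The replicate block ended the calls of Ears2 for genotype after B-IRI (adjusted p = 0.067), of Rars, Fars2 and Lars2 for the interaction (0.069, 0.070 and 0.057) and of Wars2 in Polg+/+ (0.060). Every member had over 100 normalized counts in each library, and the SE of a change between 2 groups was 0.04 to 0.09 on the log2 scale. This SE is no limit of detection, as changes well above it did not pass in limma. Examples in sham are Mars2 (-0.19 ± 0.06, adjusted p = 0.31) and Ears2 (-0.20 ± 0.07, adjusted p = 0.48). A gene that did not pass may therefore still differ. The SE is pooled over the groups, although the cytosolic library medians spread most in B-IRI PolgD257A (SD 0.168, against 0.0669 in B-IRI Polg+/+, 0.0620 in sham PolgD257A and 0.0287 in sham Polg+/+). Protein levels were not measured.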
